A study of Mus musculus with 18 samples.

Results

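The genes of the synaptic vesicle cycle were followed in the mouse retina from birth to adulthood, with and without Polo-like kinase 3 (Plk3). The set held 33 of the 18193 genes that have a probe set of their own on the array, and all 33 were found. They are a list of vesicle membrane proteins, SNAREs, and factors of release and of vesicle retrieval, drawn up when earlier results of these data were known. Each gene was read from a probe set that carries only its symbol, the one with the highest mean over 18 arrays where a gene had several. The retinas were isolated from Plk3-KO mice, whose line had been crossed to C57Bl/6, and from WT littermates, at postnatal day 0 (P0), postnatal day 7 (P7) and as adults, with 3 arrays for each genotype and age. All groups are labelled as strain C57Bl/6, and all of them are whole retina. The study calls its arrays biological replicates, but the labels do not say whether they came from separate animals, and the p-values measure the spread between these arrays.

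A nerve terminal packs transmitter into vesicles, docks and primes them at the membrane, fuses them when calcium enters, and then takes the membrane back. Synaptotagmins sense the calcium, and a SNARE complex of a synaptobrevin (Vamp), a syntaxin (Stx) and a SNAP-25 protein drives the fusion. The ATPase Nsf and its adaptors pull used SNARE complexes apart, while dynamin, amphiphysin, endophilin and synaptojanin act in endocytosis. In the retina, photoreceptors and bipolar cells release transmitter at ribbon synapses, and amacrine cells at conventional ones.

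Values were log2 signals deposited with 1 decimal, so that a difference of 1 is a change of 2-fold, and a mean of 7 was taken as the lowest level that can be read with confidence. The array medians ranged from 6.3 to 7.2. The labelled tissue was borne out by its markers: the mean of 6 rod genes rose from between 9.02 and 9.57 on the P0 arrays to between 14.8 and 16.0 on the adult arrays, and the mean of 7 progenitor genes went from between 11.8 and 12.2 down to between 5.01 and 6.49. The mean of 6 lens genes varied between 3.13 and 13.6 on the P0 arrays and between 5.77 and 12.03 on the adult arrays. The actin control probe sets differed by 1.0 to 1.3 between the 3' and 5' ends at P0, by 0.8 to 1.6 at P7 and by 1.6 to 2.7 in the adult, where Plk3-KO array 3 was highest. The Plk3 probe set reads the 3' end of the mRNA, while the deletion took the first exons of the gene, so it checks nothing about the deletion. It lay between 7.5 and 8.2 on the Plk3-KO and between 6.4 and 7.3 on the WT arrays at P0, and between 6.1 and 8.1 against 6.0 to 6.3 at P7. In the adult it lay between 7.4 and 8.0 against 3.9 to 5.9.

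Most of the vesicle cycle genes rose after birth, in both genotypes. Of the 33 genes, 32 reached the minimum in some group and were tested, and Sv2c, a vesicle glycoprotein, stayed between 3.4 and 6.1 on all 18 arrays. From P0 to P7 in WT retinas, 18 of the 32 rose and 0 fell (limma, adjusted p under 0.05), where 14.6% of all 12109 genes tested rose and 9.78% fell. In whole tissue, more cells of a type and more RNA per cell cannot be told apart. From P7 to the adult, 13 rose and 1 fell, against 11.7% and 10.7% of all genes. Over the whole course, 25 rose and 1 fell, against 27.4% and 22.6% of all genes. The median difference of the members was 0.95, 0.80 and 1.78 log2 units over these comparisons, the last a 3.44-fold change, while the median of all genes was 0.07, 0.00 and 0.07. Among the 4421 genes with a mean above 10, a level at which many of the members lie, 29.2% rose over the whole course.

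The Plk3-KO arrays, which share no array with the WT course but share its estimate of spread, gave 24 genes that rose and 0 that fell from P0 to P7, beside 14.2% and 11.6% of all genes. From P7 to the adult 13 rose and 1 fell, beside 10.5% and 11%, and over the whole course 24 rose and 1 fell, beside 25.1% and 24.5%. The medians of the members were 1.22, 0.57 and 1.88. Over the whole course, 23 genes rose in both genotypes and Stx1a fell in both. Rph3a and Syt2 passed in WT retinas alone and Rab3c in Plk3-KO retinas alone, but none of them passed the test of the difference between the courses. Bin1, Cplx2, Syt4, Syt11 and Unc13a passed in neither. Some of these depended on the setting: with arrays centred on their median Unc13a passed in both genotypes (0.93 and 1.13) and Bin1 and Syt11 in WT retinas (1.0 and 0.97), and without 4 arrays at P7 and in the adult that stood apart Bin1 passed in both (0.62 and 0.63) and Syt11 in WT retinas (0.60). The rod and progenitor markers and the actin ends moved with age along with these genes, and their part in the result was not tested.

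**Figure D1:**
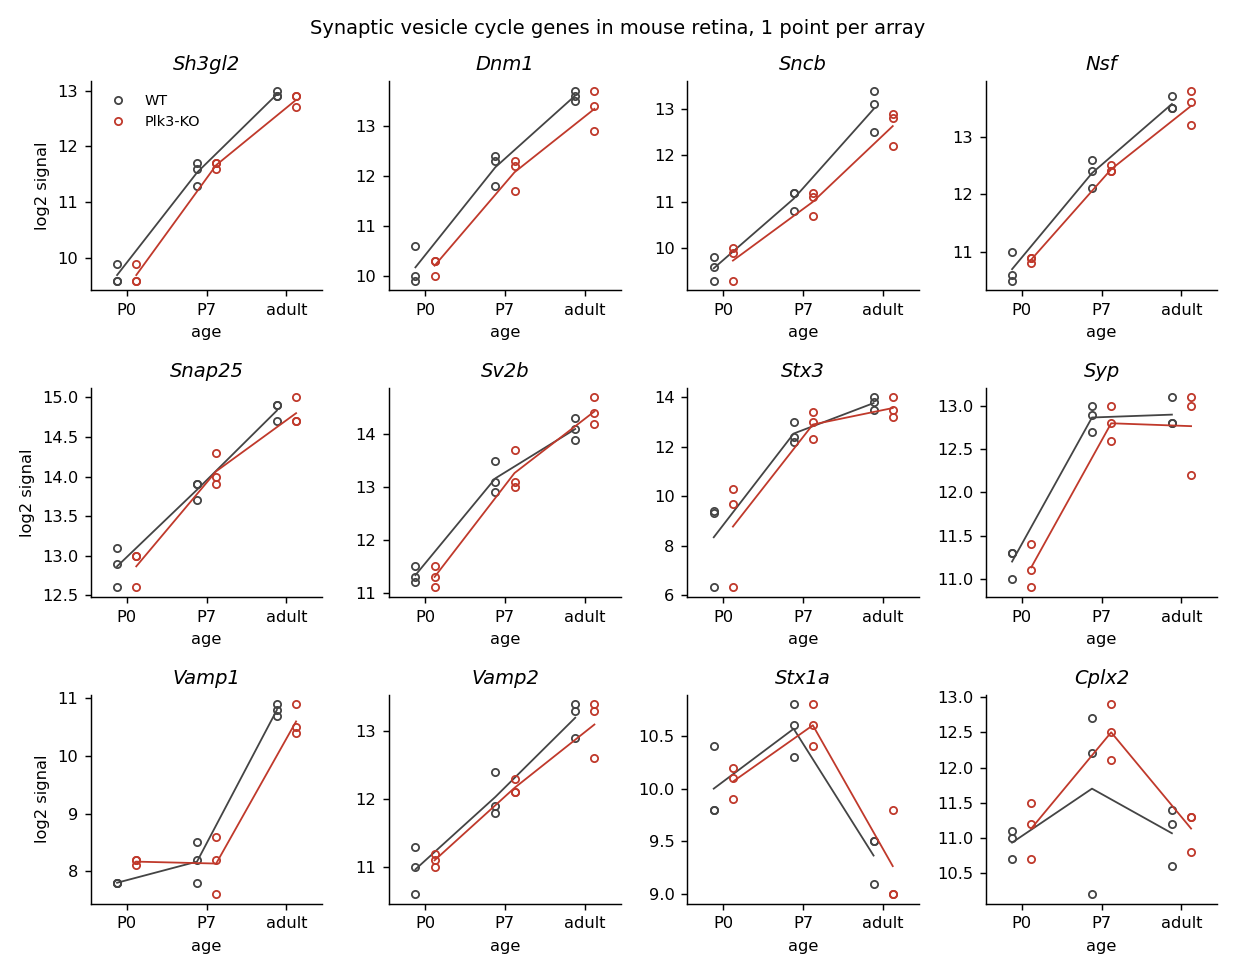
Log2 signal of 12 vesicle cycle genes on each array (vertical axes, scaled per gene) at P0, P7 and in the adult (horizontal axes). Each open circle is 1 array, grey for WT and red for Plk3-KO, and lines join the means of 3 arrays. Sh3gl2, Dnm1, Sncb and Nsf rose in both steps, Syp rose by P7 and then stayed level, Vamp1 rose after P7, and Stx1a and Cplx2 were highest at P7.

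Stretches of sequence just before the start of transcription are shown for 4 genes that stand for different courses of their chosen probe sets. Sh3gl2 stands for a steady rise, Stx3 for the largest rise by P7, Vamp1 for a rise and Stx1a for a fall after P7. The other Stx3 probe sets rose less by P7. The stretches are the 250 bases upstream of the RefSeq start on GRCm38.p6, read 5′ to 3′ on the gene's own strand. Capitals mark matches, on either strand, to 5 motifs: the cAMP response element TGACGTCA, the GC box GGGCGG, the TATA box TATAAA, the CCAAT box CCAAT and the E-box CAGCTG.
Sh3gl2, chr4:85205206-85205455, plus strand: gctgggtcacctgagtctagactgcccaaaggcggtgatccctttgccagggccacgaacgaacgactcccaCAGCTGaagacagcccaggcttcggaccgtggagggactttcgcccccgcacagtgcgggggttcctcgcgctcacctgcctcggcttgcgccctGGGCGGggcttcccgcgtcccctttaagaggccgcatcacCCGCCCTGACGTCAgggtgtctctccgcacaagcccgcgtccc
Stx3, chr19:11819404-11819653, minus strand: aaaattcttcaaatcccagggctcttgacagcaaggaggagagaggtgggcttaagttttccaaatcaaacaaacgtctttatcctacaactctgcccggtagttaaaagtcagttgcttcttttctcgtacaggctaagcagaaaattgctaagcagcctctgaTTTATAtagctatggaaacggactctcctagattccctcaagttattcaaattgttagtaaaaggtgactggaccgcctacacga
Vamp1, chr6:125215331-125215580, plus strand: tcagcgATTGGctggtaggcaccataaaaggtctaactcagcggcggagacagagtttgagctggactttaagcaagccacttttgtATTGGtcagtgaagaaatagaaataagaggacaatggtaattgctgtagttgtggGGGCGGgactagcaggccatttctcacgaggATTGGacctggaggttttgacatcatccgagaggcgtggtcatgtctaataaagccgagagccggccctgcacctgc
Stx1a, chr5:135023232-135023481, plus strand: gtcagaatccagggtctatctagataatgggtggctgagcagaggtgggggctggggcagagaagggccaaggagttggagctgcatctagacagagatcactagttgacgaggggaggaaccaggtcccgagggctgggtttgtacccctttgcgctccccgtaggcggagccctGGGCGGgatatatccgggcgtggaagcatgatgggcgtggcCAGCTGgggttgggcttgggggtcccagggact

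In the Sh3gl2 stretch a GC box on the opposite strand and the cAMP response element stand side by side. G and C made up 67.6% of the Sh3gl2 window and 42.0% of the Stx3 window. A promoter entry was found for 28 of the 33 members, all but Bin1, Snap25, Syngr3, Syt4 and Vamp2. The GC box was present in 20 of these 28, and in 35.4% of all 27025 genes with an entry. The windows of the members were also richer in G and C, with a median of 61.2% where all 32851 windows had 52.4%. The part of this in the GC box count was not tested. The E-box was found in 10 of the 28 (14.7% of all genes), the CCAAT box in 9 (37.5%), the TATA box in 2, Stx3 and Sv2b (14.3%), and the cAMP response element in 2, Sh3gl2 and Syn1 (1.77%). The matches describe letters in these windows and are not tests of binding.

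Of the vesicle membrane proteins, 10 were tested, and 8 rose in WT retinas over the whole course and 7 in Plk3-KO retinas, with none falling. Syt1, the calcium sensor of fast release, read 12.1, 12.4 and 12.1 on the WT arrays at P0, 13.6, 13.6 and 13.9 at P7, and 14.3, 14.2 and 14.4 in the adult. The ages did not overlap, and the change over the whole course was 2.10 ± 0.18 (SE, adjusted p = 1.33e-07 by limma). Sv2b, a vesicle glycoprotein, read 11.5, 11.3 and 11.2 at P0, 12.9, 13.1 and 13.5 at P7, and 14.3, 14.1 and 13.9 in the adult, a rise of 2.77 ± 0.22 that was 3.13 in Plk3-KO retinas. Its relative Sv2a rose by 2.47 in WT and 2.13 in Plk3-KO retinas. Synaptogyrin 1 (Syngr1), a small membrane protein of the vesicle, rose by 2.53 and 2.60. Synaptophysin (Syp), often used to stain synapses, rose early: it was 11.3, 11.3 and 11.0 at P0, 12.7, 12.9 and 13.0 at P7 and 13.1, 12.8 and 12.8 in the adult. Its first step was 1.67 ± 0.22 (adjusted p = 6.07e-05) and its second was 0.03, with the P7 and adult arrays overlapping. Slc17a6, which loads glutamate into vesicles, went the same way, with steps of 0.93 and 0.33 of which the first passed.

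Syt4 and Syt11, relatives of Syt1, did not pass between any ages on their chosen probe sets. A further Syt4 probe set fell by 1.40 from P0 to P7 in WT retinas (adjusted p = 0.00292 by limma) and by 0.87 over the whole course in Plk3-KO retinas (adjusted p = 0.025). Syt4 was between 11.7 and 12.0 on the WT arrays at P0 and between 11.9 and 12.2 in the adult, and the difference of 0.20 ± 0.25 had an adjusted p = 0.518 (limma). Syt2, a second fast calcium sensor, was below the minimum of 7 at P0 and P7 and between 7.2 and 7.8 on the adult WT arrays, so the size of its rise (1.90, adjusted p = 0.0455 by limma) is not firm. The call was lost on leaving out any 1 of 11 of the 18 arrays, among them each P0 and adult WT array, with values of 1.77 to 2.08. On the adult Plk3-KO arrays Syt2 read 5.3, 7.3 and 7.6.

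The synapsins, which tether vesicles in the reserve pool, rose over the whole course, and on their chosen probe sets neither passed in a single step of the WT course. Syn1 read 9.0, 9.7 and 8.6 at P0, 10.2, 10.8 and 9.1 at P7 and 11.4, 11.1 and 10.8 in the adult, and rose by 2.0 ± 0.41 (adjusted p = 0.000935 by limma). Syn2 rose by 1.60 in WT and 2.17 in Plk3-KO retinas, and there its first step of 1.73 passed. Of its further probe sets in WT retinas, 1 rose by 1.07 from P0 to P7 (adjusted p = 0.0349 by limma) and another by 2.23 from P7 to the adult (adjusted p = 0.000341). Among the P7 WT arrays both genes were lowest on array 3.

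The 5 SNAREs differed over the whole course in WT retinas from -0.63 to 5.43. Stx3, the syntaxin of ribbon synapses, had the largest change of all members. On the WT arrays it read 9.4, 9.3 and 6.3 at P0, 12.4, 12.2 and 13.0 at P7, and 13.5, 14.0 and 13.8 in the adult. On the Plk3-KO arrays it read 9.7, 10.3 and 6.3, then 12.3, 13.4 and 13.0, then 14.0, 13.5 and 13.2. The P0 arrays lay apart from all later ones, but array 3 of each genotype fell below the minimum, so that the rise of 5.43 ± 0.85 in WT retinas (43.2-fold, adjusted p = 8.65e-05 by limma) and of 4.80 in Plk3-KO retinas is not firm in size. Without P0 array 3 of the genotype concerned the rises were 4.42 (21.4-fold) and 3.57 (11.8-fold). Most of the WT rise came by P7, where the first step was 4.20 (adjusted p = 0.00221), and the second step of 1.23 did not pass (adjusted p = 0.329).

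Stx1a, the syntaxin of conventional synapses, was the 1 member whose chosen probe set fell in the main fit, while some other settings added more. It read 9.8, 10.4 and 9.8 on the WT arrays at P0, 10.6, 10.3 and 10.8 at P7 and 9.5, 9.5 and 9.1 in the adult, and on the Plk3-KO arrays 9.9, 10.1 and 10.2, then 10.4, 10.8 and 10.6, then 9.0, 9.0 and 9.8. Each adult array lay below each P7 array of its genotype. The fall from P7 to the adult was -1.20 ± 0.24 in WT (adjusted p = 0.00279 by limma) and -1.33 in Plk3-KO retinas (adjusted p = 0.00124). Against P0 the adult was lower by a smaller amount, -0.63 (adjusted p = 0.0384) and -0.80 (adjusted p = 0.0123). With each array centred on its median these became -0.27 and -0.53 and no longer passed, while the fall from P7 still did. In WT retinas the difference from P0 also stopped passing without P0 array 2 (-0.43, adjusted p = 0.179) or without any single adult array (-0.70 to -0.50), and in Plk3-KO retinas without adult array 1 or 2 (-0.67 for each). The probe set carries the suffix x, by which Affymetrix marks probes shared with other transcripts. A further Stx1a probe set, at a lower level, differed by -0.87 in WT and -0.90 in Plk3-KO retinas between P7 and the adult, and did not pass.

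Vamp1 and Vamp2, the synaptobrevins on the vesicle side, rose at different times. Vamp1 read 7.8 on all 3 WT arrays at P0, 8.2, 8.5 and 7.8 at P7, and 10.9, 10.7 and 10.8 in the adult. Its first step was 0.37 (adjusted p = 0.318 by limma) and its second 2.63 ± 0.24, or 6.20-fold (adjusted p = 4.22e-06), and in Plk3-KO retinas the steps were -0.03 and 2.47. Vamp2 rose by 1.07 in the first step and 1.17 in the second, and Snap25, the SNARE of the target membrane, by 0.97 and 1.00. All 4 of these steps passed, as they did in Plk3-KO retinas for Vamp2 and Snap25. With arrays centred on their median, the second step of Snap25 passed in neither genotype, and that of Vamp2 did not pass in Plk3-KO retinas.

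The genes that take SNARE complexes apart rose together: all 3 rose over the whole course in both genotypes. Nsf read 10.5, 11.0 and 10.6 on the WT arrays at P0, 12.4, 12.6 and 12.1 at P7 and 13.5, 13.7 and 13.5 in the adult. The ages were clear of each other, and Nsf rose by 2.87 ± 0.18 (7.29-fold, adjusted p = 7.37e-09 by limma). On the chosen probe sets its adaptor Napb rose by 1.47 in the first step and by 0.30 in the second, which did not pass. The adaptor Napa rose by 0.60 and then 0.87, both of which passed. Further Napb probe sets did pass the second step in WT retinas, with 0.90 and 1.07 (adjusted p = 0.00447 and 0.0126 by limma). They passed it in Plk3-KO retinas too (0.83 and 1.03), while others, with 0.80 and 0.87 in WT retinas, did not pass.

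The factors of priming and release had a median of 0.88 over the whole course, below the 1.78 of all members. On the chosen probe sets none of the 6 passed from P0 to P7 in WT retinas and 4 of the 6 did in Plk3-KO retinas, but no difference between the genotypes in this step passed. Further probe sets of Cplx1 (0.77), Cplx2 (1.20 and 1.43) and Rab3a (1.23) did pass it in WT retinas. Over the whole course 3 of 6 rose in each genotype. Rab3a, a vesicle GTPase, rose by 1.80 in WT and 1.83 in Plk3-KO retinas. Cplx1, a complexin that clamps and aids fusion, read 11.1, 10.1 and 11.1 on the WT arrays at P0, 10.9, 10.7 and 11.2 at P7 and 12.3, 12.3 and 11.8 in the adult. On this probe set its rise in WT retinas came after P7 (1.20 ± 0.27, adjusted p = 0.00604 by limma), while a further one of Cplx1 also rose before P7 (0.77 ± 0.18, adjusted p = 0.00566). Its relative Cplx2 was highest at P7. On the Plk3-KO arrays it read 11.5, 11.2 and 10.7 at P0, 12.1, 12.5 and 12.9 at P7 and 11.3, 11.3 and 10.8 in the adult, a step of 1.37 that passed (adjusted p = 0.0452) and a step of -1.37 that did not (adjusted p = 0.0503). On the WT arrays the P7 readings were 12.2, 12.7 and 10.2, and neither step passed. Without P7 WT array 3 both WT steps passed (1.52 and -1.38), and the first Plk3-KO step stopped passing on leaving out any 1 of 13 of the 18 arrays (1.15 to 1.57). Unc13a, which primes vesicles, had an adult minus P0 difference of 0.57 in WT and 0.87 in Plk3-KO retinas, neither past the test (adjusted p = 0.279 and 0.108 by limma).

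All 5 endocytosis genes rose from P0 to P7 in each genotype, and 4 of the 5 over the whole course. Sh3gl2, the endophilin of nerve terminals, gave the smallest p of all members. It read 9.6, 9.9 and 9.6 on the WT arrays at P0, 11.7, 11.6 and 11.3 at P7 and 13.0, 12.9 and 12.9 in the adult, with no overlap between ages, and rose by 3.23 ± 0.15 (9.40-fold, adjusted p = 2.39e-10 by limma). Dnm1, the neuronal dynamin that cuts vesicles free, rose by 3.43 in WT (10.8-fold) and 3.13 in Plk3-KO retinas. Amph, an amphiphysin that binds dynamin, rose by 2.20 in the first step and by 0.13 in the second, and Synj1, the lipid phosphatase of vesicle uncoating, by 1.30 and 0.20. Bin1, the second amphiphysin, read 10.3, 10.6 and 10.1, then 11.7, 11.7 and 11.1, then 11.0, 10.9 and 11.0 on the WT arrays. It rose by 1.17 from P0 to P7 (adjusted p = 0.0136), and the following -0.53 did not pass. The first call was lost without P0 array 3 (1.05) or without P7 array 1 or 2 (1.07 for each). Sncb, a synuclein of nerve terminals, rose in both steps, by 1.50 and 1.93 in WT and by 1.27 and 1.63 in Plk3-KO retinas.

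**Figure D2:**
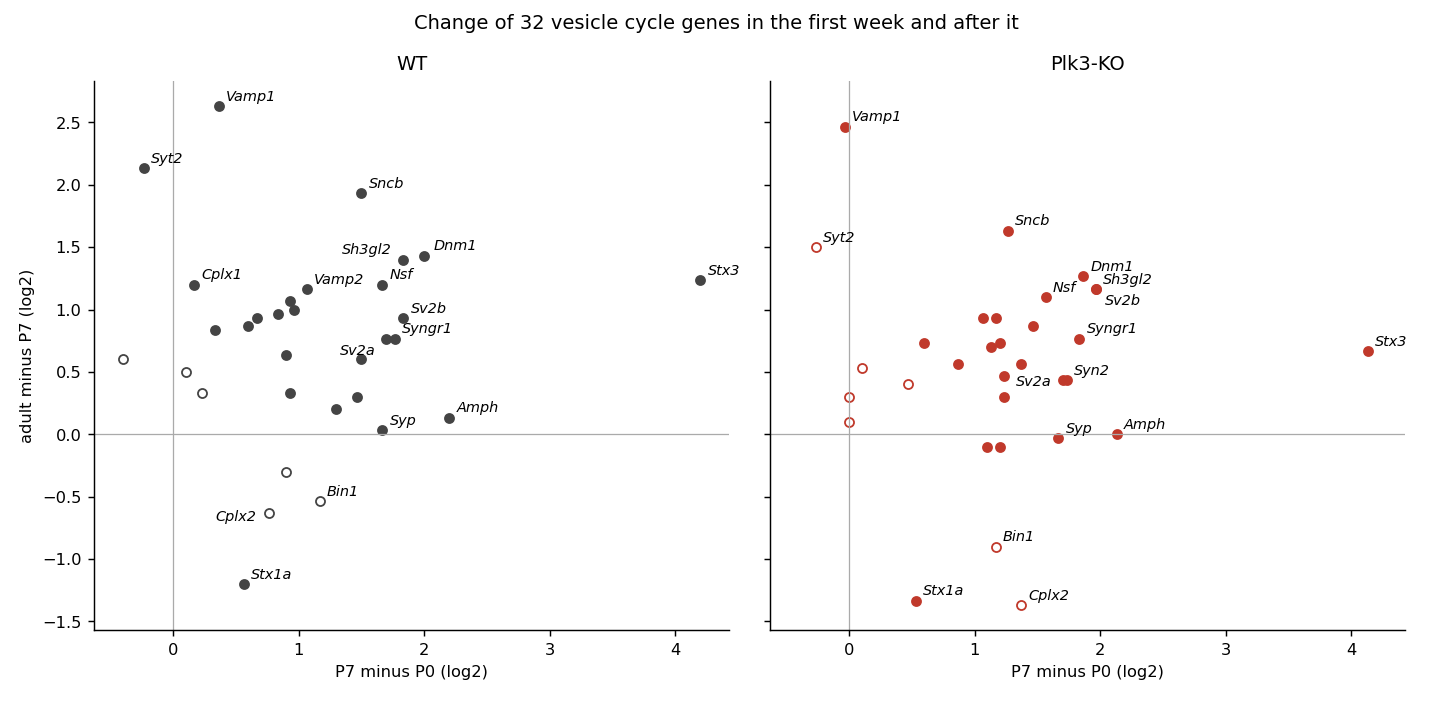
Difference from P0 to P7 (horizontal axes, log2) against that from P7 to the adult (vertical axes, log2) for the 32 genes tested, WT left and Plk3-KO right. Each point is 1 gene, filled where adult and P0 differed by limma, and both axes use the same P7 arrays. Vamp1 stands high at little change before P7, Stx3 far to the right, and Stx1a, Cplx2 and Bin1 below 0 on the vertical axis in both panels.

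To ask whether related genes changed alike, the difference between 2 relatives was taken on each array and its change with age was tested over both genotypes (exact permutation of ages within genotype, 400 regroupings, smallest possible p = 0.005, two-sided, Benjamini-Hochberg over 12 pairs and 2 steps). In 13 of the 24 tests the adjusted p was under 0.05, and 3 of these 13 involve Syt2 or Sv2c at ages where they were below the minimum. Stx1a minus Stx3 changed by -3.62 log2 units in the first step and -2.22 in the second (adjusted p = 0.015 in each, exact permutation). The second rests on the chosen Stx3 probe set, since others fell after P7 in WT retinas by 1.60 and 1.63, more than the -1.20 of Stx1a. Vamp1 minus Vamp2 changed by -0.90 in the first step and 1.50 in the second (adjusted p = 0.015 in each, exact permutation). Napa minus Napb changed by -0.75 before P7 (adjusted p = 0.015, exact permutation) and by 0.42 afterwards (adjusted p = 0.0462). The later change rests on the chosen Napb probe set, since others rose after P7 in WT retinas by 0.80 to 1.07, beside the 0.87 of Napa. Cplx1 gained 2.07 on Cplx2 after P7 (adjusted p = 0.0218, exact permutation), where the change before P7 was -0.40 (adjusted p = 0.577). Amph gained 1.00 on Bin1 before P7 and 0.78 after it (adjusted p = 0.0218 in each, exact permutation), and Syngr1 gained 0.75 on Syngr3 before P7 (adjusted p = 0.015, exact permutation). Syt1 gained 1.73 on Syt2 before P7 and Sv2a gained 1.38 on Sv2c (adjusted p = 0.015 in each, exact permutation), but Syt2 at these ages and Sv2c throughout were below the minimum. Without P7 WT array 3, P7 Plk3-KO array 2 and array 3 of each adult genotype, which leaves fewer regroupings, 5 of the 24 tests passed. For Sv2a and Sv2b, Syn1 and Syn2, Syt4 and Syt11, and Rab3a and Rab3c, no step passed.

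Several genes have further probe sets, which target other parts or forms of the transcript. Of the 88 probe sets of the members, 74 were above the minimum, 42 of them beside the chosen probe sets, in 24 genes. From P0 to P7, 5 of the 42 differed in sign from the chosen probe set in WT retinas and 0 in Plk3-KO retinas. Between P7 and the adult 10 and 13 did, and over the whole course 11 and 9. From P0 to P7 in Plk3-KO retinas the chosen Syt4 and Syt11 probe sets differed by 0.0, so no sign could be compared for these genes. For Stx3 the disagreement was as large as the result. The chosen probe set and another of Stx3 rose over the whole course in WT retinas, by 5.43 and 1.47, while another fell by 1.00 and the remaining one differed by -0.37, which did not pass. For Syngr1, the further probe set rose by 1.83 to P7 and then fell by 0.97, where the chosen probe set rose again. The 3 further probe sets of Syt1 gave 0.30, -1.40 and 0.83 over the whole course in WT retinas, none of them past the test. For Cplx2, 1 further probe set rose by 1.20 and then fell by 1.30, and the other rose by 1.43 and then fell by 1.63, each step past the test in WT retinas and also in Plk3-KO retinas.

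**Figure D3:**
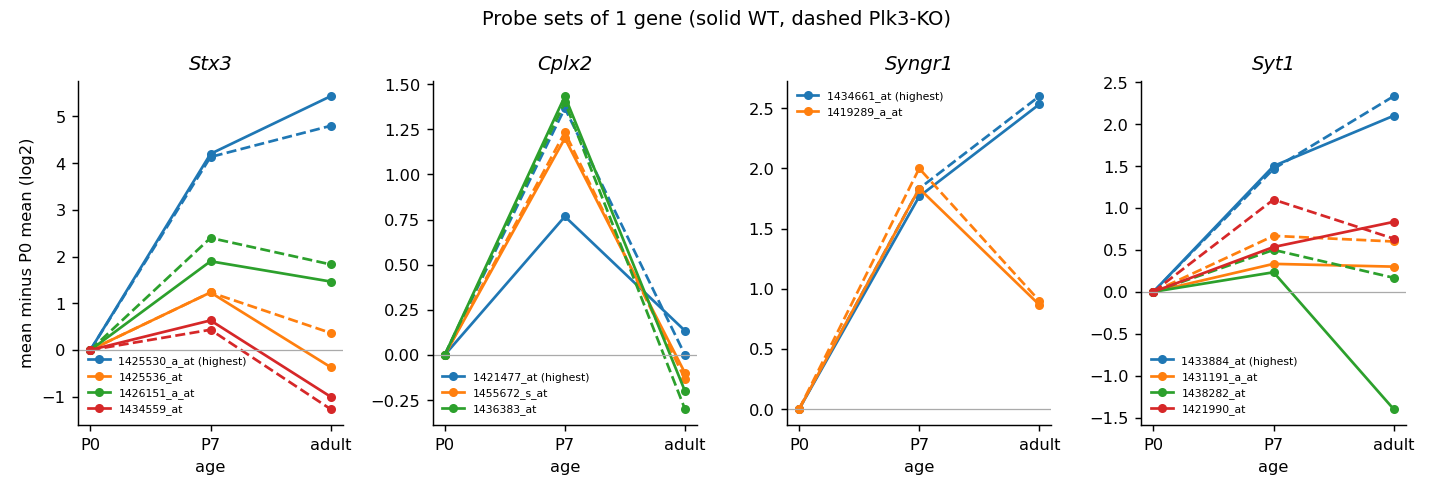
Group mean minus the P0 mean of the same genotype (vertical axes, log2) at each age for every probe set above the minimum of Stx3, Cplx2, Syngr1 and Syt1. Colours are probe sets, solid lines WT and dashed lines Plk3-KO, each point a mean of 3 arrays. The probe sets of Cplx2 all peak at P7, while those of Stx3 part from each other after P7.

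At P7, an array of each genotype stood apart in the same way, and this touched many of the members. WT array 3 and Plk3-KO array 2 had a median of 6.4 where the other 4 P7 arrays had 6.8 or 6.9, and an actin end difference of 1.6 where the others had 0.8 to 1.1. Set against the other 2 arrays of its group, 10 genes were lower by at least 0.5 on both of these arrays: Bin1, Dnm1, Rab3c, Rph3a, Sv2c, Syn1, Syn2, Syngr3, Unc13a and Vamp1. How many of all genes were lower by as much was not counted, and Sv2c was below the minimum. Syn1 was lower by 1.40 on the WT array and by 1.10 on the Plk3-KO array, and Unc13a by 1.30 and 1.25. On their chosen probe sets Rab3a, Stx3 and Sv2b were higher by at least 0.5 on both, Rab3a by 1.30 and 1.15. The chosen Rab3a probe set carries the suffix x, and the further one was lower. It read 11.1 on the WT array, where the others had 11.5 and 11.9, and 11.2 on the Plk3-KO array, where they had 11.4 and 11.9. No further Stx3 probe set was higher on both arrays. The horizontal cell marker list differed by -1.41 and -1.60 on these arrays, the amacrine list by -0.74 and -0.60, the bipolar list by -0.57 and -0.40 and the endothelium list by -0.97 and -0.45. The rod list differed by 0.17 and 0.54 and the progenitor list by 0.56 and 0.28, while the cone list went opposite ways (-0.88 and 0.97). What sets these arrays apart was not tested.

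**Figure D4:**
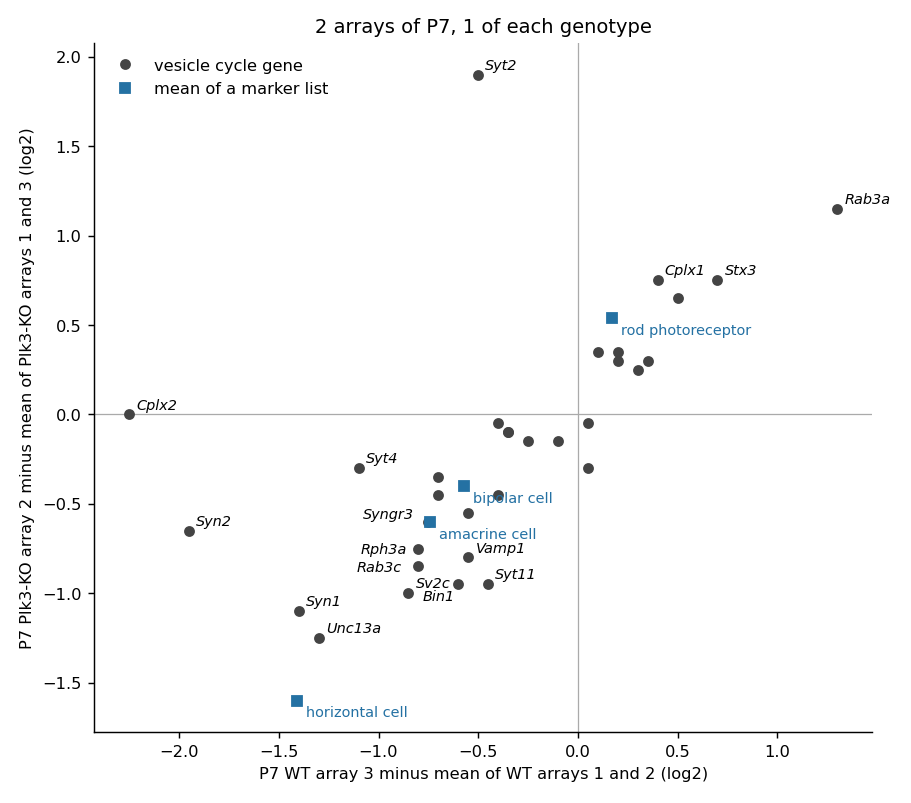
Deviation of P7 WT array 3 (horizontal axis, log2) and of P7 Plk3-KO array 2 (vertical axis, log2) from the mean of the other 2 arrays of their groups. Dark circles are the 33 genes, each on its chosen probe set, and blue squares are means of the horizontal, amacrine, bipolar and rod marker lists. The other lists are not drawn, and some of them, such as the cone list, went opposite ways on these arrays. Syn1 and Unc13a lie low on both arrays, as do the horizontal and amacrine cell markers, and Rab3a and Stx3 lie high on both, where the rod markers deviate by 0.17 and 0.54.

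Array 3 of each adult genotype stood apart by its median, 7.0 in WT and 7.2 in Plk3-KO retinas, where the other adult arrays had 6.3 to 6.5. Without these and the P7 pair, 4 arrays in all, 24 genes rose from P0 to P7 in WT retinas, the same 18 with Cplx2, Rab3c, Rph3a, Syn1, Syn2 and Syngr3. From P7 to the adult, 4 then fell in WT retinas (Bin1, Cplx2, Rab3c and Stx1a) and 3 in Plk3-KO retinas (Bin1, Cplx2 and Stx1a). The share of all genes that passed in this fit was not set beside these counts. The counts therefore cannot be read as particular to the members. Cplx2 then rose by 1.52 and fell by 1.15 in WT retinas (adjusted p = 0.000669 and 0.00545 by limma), and Bin1 rose by 1.37 and fell by 0.75 (adjusted p = 0.000113 and 0.00936). With each array centred on its median, the median change of all probe sets from P7 to the adult went from -0.10 to 0.07 in WT and to -0.07 in Plk3-KO retinas, and 7 and 5 members rose, beside 7.75% and 5.76% of all genes. Napa, Snap25, Sv2b, Syngr1 and Syt1 lost the call for this step in both genotypes. Sv2a lost it in WT retinas, and Cplx1, Synj1 and Vamp2 in Plk3-KO retinas. Napa also lost its call from P0 to P7 in both genotypes. Over the whole course 29 and 25 then rose and 0 fell in each, and of all genes 30.7% rose and 11.1% fell in WT retinas.

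The next comparison asked whether these genes differ without Plk3 at each age. By limma, none of the 31 members tested at P0 or at P7, and none of the 32 in the adult, passed between Plk3-KO and WT retinas, where 0% of all genes passed at each age and over the mean of the ages. At an unadjusted p under 0.05, 1 member was lower at P0, 0 passed at P7 and 1 was higher in the adult, where 85 of 22611, 123 of 21390 and 1008 of 21005 probe sets had such a p. The median difference of the members was 0.00 at P0, 0.07 at P7 and -0.10 in the adult, and in the adult 24 of the 32 were below 0, where the median of all genes was -0.07. For 21 genes the 95% interval of the difference lay within 1 log2 unit of 0 at all 3 ages, Sh3gl2 between -0.42 and 0.22 and Napa between -0.43 and 0.23 in the adult. For Stx3 it ran from -1.36 to 2.23 at P0 and from -1.99 to 1.59 in the adult, so that a difference of 2-fold was not detectable there.

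The member with the smallest p at P0 was Cplx1. It read 11.1, 10.1 and 11.1 in WT and between 9.7 and 10.1 in Plk3-KO retinas, a difference of -0.83 (95% interval -1.40 to -0.27, adjusted p = 1 by limma), with the highest Plk3-KO array level with the lowest WT array. The further Cplx1 probe sets had P0 means of 9.40 in Plk3-KO and 9.37 in WT retinas and of 7.33 and 7.63. On the chosen probe set the difference was 0.17 at P7 and -0.10 in the adult. Synj1 had the smallest p in the adult, with 12.5, 12.4 and 12.8 in WT and 12.8, 13.0 and 13.0 in Plk3-KO retinas, a difference of 0.37 (95% interval 0.03 to 0.70, adjusted p = 0.978 by limma). With arrays weighted by their quality Synj1 passed, and no other member passed at an age under any alternative run. The share of all genes that passed under these weights was not set beside this call. By the methods' t-test, with no adjustment, 1 member passed at P0, where 2.06% of all genes did, 1 at P7 (1.26% of all genes) and 0 in the adult (3.52% of all genes). The P0 gene was Vamp1, with 8.2, 8.1 and 8.2 in Plk3-KO retinas above the 7.8 of each WT array, and the P7 gene was Napb, with a difference of -0.13. Neither passed after adjustment. An exact permutation test of 3 arrays against 3 cannot go below p = 0.1. For the difference between genotypes in the change with age, no member passed between P0 and P7, between P7 and the adult or over the whole course (limma, with 0% of all genes in each), and 1 had an unadjusted p under 0.05, Cplx1 between P0 and P7, whose step was larger by 1.00 in Plk3-KO retinas (95% interval 0.20 to 1.80). Over all features 128 of 25085 probe sets had such a p for this difference, and on the further Cplx1 probe set with the higher mean the steps were 0.80 in Plk3-KO and 0.77 in WT retinas.

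**Figure D5:**
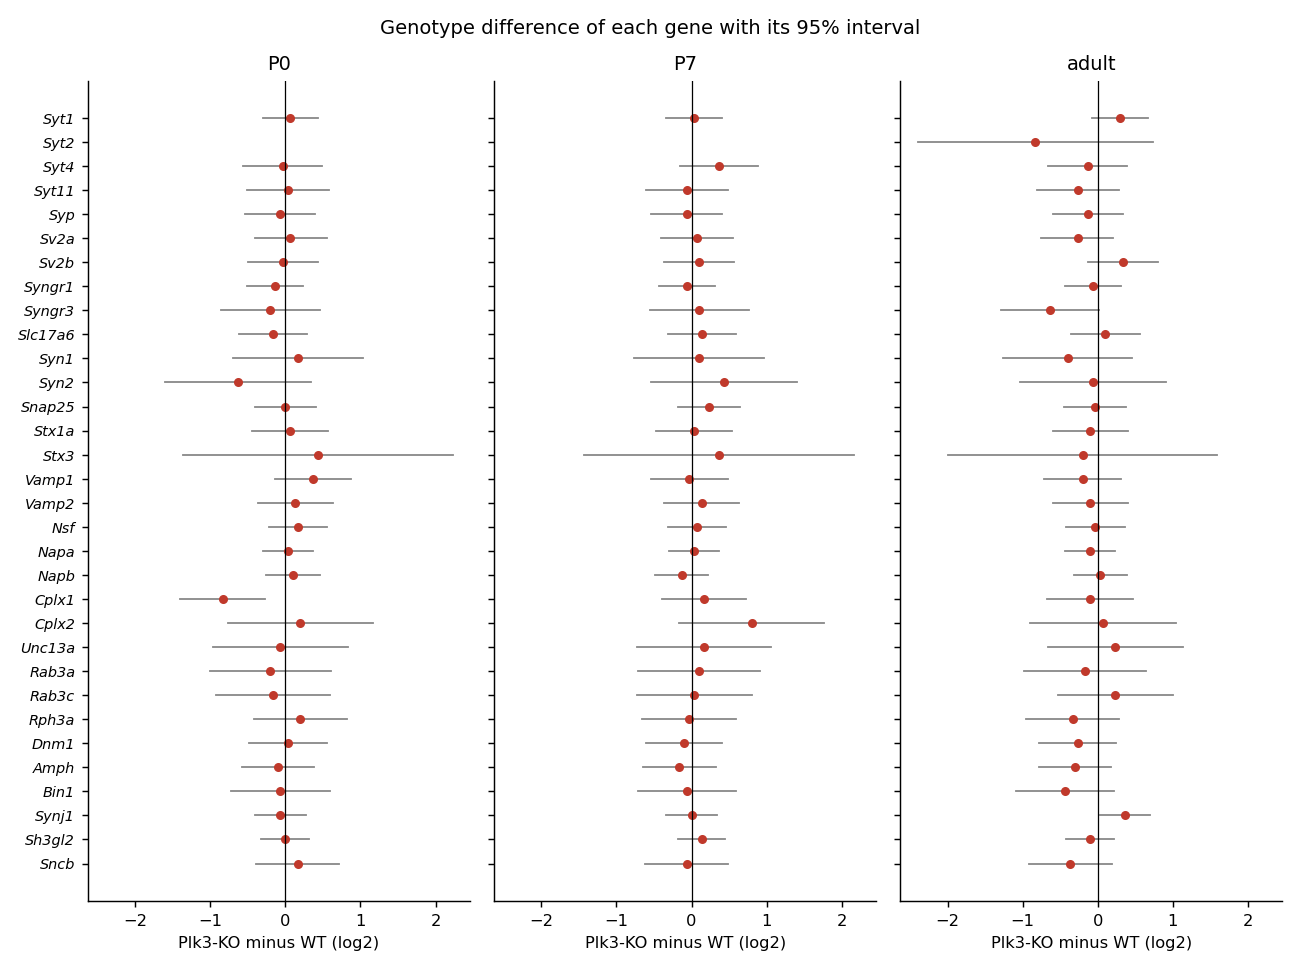
Plk3-KO minus WT difference (horizontal axes, log2) of each gene at P0, P7 and in the adult. Red points are differences of means of 3 arrays a genotype and grey bars their 95% intervals from limma, with Syt2 drawn only in the adult, where it was tested. Most bars cross 0 within 1 log2 unit, and those of Stx3, Syn2 and Cplx2 are wide.

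A wider list of 103 other genes of the same cycle was read in the same way. Of these, 97 were on the array and 95 were tested. In WT retinas 34 rose and 1 fell from P0 to P7, 27 rose and 6 fell from P7 to the adult, and 52 rose and 9 fell over the whole course. The median over the whole course was 0.83, against 1.78 for the 33 genes above. In Plk3-KO retinas 54 rose and 13 fell over the whole course, and none passed between genotypes at any age. Over the whole course 27.4% of all genes rose and 22.6% fell in WT retinas, and 25.1% and 24.5% in Plk3-KO retinas. Of all genes in WT retinas, 14.6% rose and 9.78% fell from P0 to P7, and 11.7% and 10.7% from P7 to the adult. From P0 to P7 in WT retinas, 6 of the 25 further endocytosis genes rose (median 0.40) and 11 of the 23 further priming and release genes (median 0.60), beside 5 of 5 and 0 of 6 among the 33 genes. Of the subunits of the proton pump that acidifies vesicles, 12 of 13 rose in WT retinas over the whole course, with a median of 1.47. Of 14 further SNAREs and their partners, which serve many membranes, 5 rose and 1 fell over the whole course in WT retinas.

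Within each role of the wider list, the highest 2 genes by mean were named. Atp6v0b and Atp6v1g1, subunits of the pump, rose over the whole course by 2.27 and 0.80 in WT retinas. Slc32a1, which loads GABA and glycine, rose by 2.50 and Slc6a17, which loads neutral amino acids, by 2.33. Synpr and Scamp1, vesicle membrane proteins, rose by 2.70 and 1.70. Snap47 rose by 1.63, while Stx6, a syntaxin of the trans-Golgi, rose by 0.77 to P7 and fell by 0.70 after it. Clta, a clathrin light chain, rose by 1.03 and Dnajc5, a chaperone on the vesicle, by 0.73. Hspa8, Rab5a, Sncg and Syn3 differed by 0.53, 0.23, 0.50 and -0.03 over the whole course in WT retinas and did not pass. In Plk3-KO retinas Sncg did pass over the whole course (0.70). The steps of Syn3 in WT retinas were 1.13 and -1.17, neither past the test. In Plk3-KO retinas they were 0.90 and -1.23, of which the second passed.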

How the data were processed

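RNA of whole retinas was hybridised to Affymetrix mouse genome arrays, 3 for each of 6 groups of age and genotype. The authors made the deposited log2 values with MAS5 in the Bioconductor Affy package, and no normalization was added here. Arrays hold no read counts, and precision rests on how many there were. Of 45101 probe sets, 64 controls were left out, 34945 carried 1 gene symbol, 932 several and 9211 none. Gene IDs were matched to GRCm38.p6 for all 33 members. No build is named for the probe annotation in these sources.

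With limma 3.58.1 in R 4.3.3, 1 mean per age and genotype was fitted to all 18 arrays with a variance trend (12 residual and 4.07 prior degrees of freedom). Over ages, 25085 probe sets with a mean above 7 in any group were tested. At 1 age, either genotype had to exceed 7. Benjamini-Hochberg adjustment ran within each contrast over all probe sets tested, with a threshold of 0.05, and 12109 genes were counted by their highest probe set. The methods' t-test was an alternative, as were quantile normalization, centring of arrays, other minimums, array weights, the mean of a gene's probe sets, and leaving arrays out. Scripts were tested on simulated data. Members, lists and the named genes (all members, and the 2 highest by mean in each role of the wider list) were chosen with earlier results of these data known.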

Additional observations from a re-analysis of the deposited data

How the results depend on the processing

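More members rose than fell in every age comparison under every setting tried, while the counts themselves moved. With arrays centred on their median, the median of the members in WT retinas was 1.18 from P0 to P7 and 2.15 over the whole course, and 1.45 and 2.15 in Plk3-KO retinas. From P7 to the adult 7 members then rose in WT and 5 in Plk3-KO retinas, and of the wider list 15 rose and 2 fell in WT, and 9 rose and 4 fell in Plk3-KO retinas. The wider list then had 0 genes lower from P0 to P7 and 1 over the whole course in WT, and 1 and 8 in Plk3-KO retinas. No member was lower over the whole course in either genotype after centring, nor in WT retinas after quantile normalization, with no minimum, without the variance trend, or with only the groups compared (0 in each). Of the wider list, 2 genes were lower from P0 to P7 in WT retinas after quantile normalization and 0 with no minimum. After quantile normalization the Plk3-KO median over the whole course was 1.69, and 2 members were lower from P7 to the adult. Shares of all genes were not set beside the counts in this paragraph, which therefore cannot be read as particular to the members.

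With array weights, 20 members rose from P7 to the adult in each genotype, 4 fell in WT and 3 in Plk3-KO retinas, and 1 (Synj1) was higher in adult Plk3-KO retinas. Without the 4 arrays, the medians from P0 to P7 were 1.28 and 1.38, 4 and 3 members fell from P7 to the adult, and 5 paralog steps passed. A minimum of 8 gave 3 members lower from P7 to the adult in Plk3-KO retinas, and fitting only the groups compared gave 6 higher and 2 lower there. With the mean of a gene's probe sets, 1 member fell from P0 to P7 in WT retinas, 2 fell from P7 to the adult (3 in Plk3-KO retinas, where 8 rose), and the medians were 0.61 from P7 to the adult and 1.62 over the whole course in WT and 1.64 in Plk3-KO retinas. Syngr1 then changed sign from P7 to the adult, to -0.10 in WT and -0.17 in Plk3-KO retinas, and Syt1 to -0.19 in WT retinas. The cause of these moves was not tested. For the settings in this paragraph the share of all genes that passed was not set beside the counts. The counts therefore cannot be read as particular to the members.

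Leaving out single arrays, the median of the members ranged from 0.90 to 1.28 from P0 to P7 and from 0.58 to 0.88 from P7 to the adult in WT retinas, from 1.20 to 1.38 from P0 to P7 in Plk3-KO retinas, and from -0.10 to 0.13 between genotypes at P7. The members that fell numbered 1 to 2 from P7 to the adult and 0 to 1 over the whole course in WT retinas, and 1 to 3 and 0 to 1 in Plk3-KO retinas. Arrays of equal number correlated in their deviations from the group means by 0.19, -0.06 and 0.10 at P0, 0.38, -0.49 and -0.61 at P7 and 0.49, 0.10 and 0.54 in the adult, so that the adult pairs were all above 0 but the numbers were not taken as pairs over all ages. With the replicate number as a block, 19, 13 and 24 members rose over the WT comparisons and 22, 13 and 24 over the Plk3-KO ones, and 2 fell from P7 to the adult in Plk3-KO retinas. For the fits in this paragraph too, the share of all genes that passed was not set beside the counts. These counts therefore cannot be read as particular to the members.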
